A study of Drosophila melanogaster with 9 samples.

Results

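Septate junctions are the ladder-like seals that close the space between neighbouring insect cells. In the fly brain they join the subperineurial glia, a thin glial layer beneath the brain surface, and so make up the paracellular part of the blood-brain barrier, while efflux pumps in the same cells export foreign compounds. Their strands hold adhesion proteins, claudin-family membrane proteins, scaffolds and ion pumps, and a specialised junction closes the points where 3 cells meet. The 10 genes described here are Gli, Nrx-IV, Cont, cora, sinu, kune, Lac, moody, Mdr65 and Tsf2. They were taken by symbol from the array's annotation, in which each has exactly 1 probe set of its own, so they account for 10 of the 13647 probe sets that name 1 gene and of 18952 in all.

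RNA came from dissected brains of naturally ageing Drosophila melanogaster kept at 25°C on standard medium, with 3 arrays for each of the ages 3 days (3d), 30 days (30d) and 60 days (60d). Strain, sex and the number of brains per array are not given in the sources used here, and p-values therefore reflect array-to-array spread alone, which may be technical. Values are the deposited linear signals, and changes are differences in log2(signal + 1) ± SE from limma, fitted to all 9 arrays, with p-values adjusted over the 8171 genes that passed a filter on low signal. A gene passed the test when its adjusted p was under 0.05. All 10 genes passed the filter.

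The arrays differed in ways that touch the results. The median signal ran from 60.6 to 78.3 over the arrays, and every 30d array exceeded every 3d array. The median SD of a gene between replicates, on the log2 scale, was 0.23 for 3d arrays, 0.09 for 30d arrays and 0.21 for 60d arrays. The 3' to 5' ratio of the GAPDH control, a measure of RNA or labelling quality, was 5.03 on the log2 scale on 3d replicate 1 and 1.58 to 2.07 on the other arrays. Neuronal and glial markers were present, with 7 of 8 matched neuronal and 4 of 5 matched pan-glial genes above the 60th percentile of all values at 3d, and so were all 8 matched photoreceptor genes.

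Old brains carried more Gli transcript than young brains, and smaller rises were called for sinu, Lac and Cont. In the 60d against 3d comparison 4 of the 10 genes (40%) rose and 6 did not pass, and no member fell, against 18.5% of all genes tested that passed in either direction (8.03% higher and 10.5% lower). The median change of the 10 genes was 0.32, and that of all genes tested was 0.04. The arrays of the ages were apart for the same 4 genes, all higher at 60d, against 31.1% of all genes (13.5% all higher, 17.6% all lower). In whole brains, more cells of a type and more RNA per cell cannot be told apart, and neither can fewer cells and less RNA per cell.

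**Figure D1:**
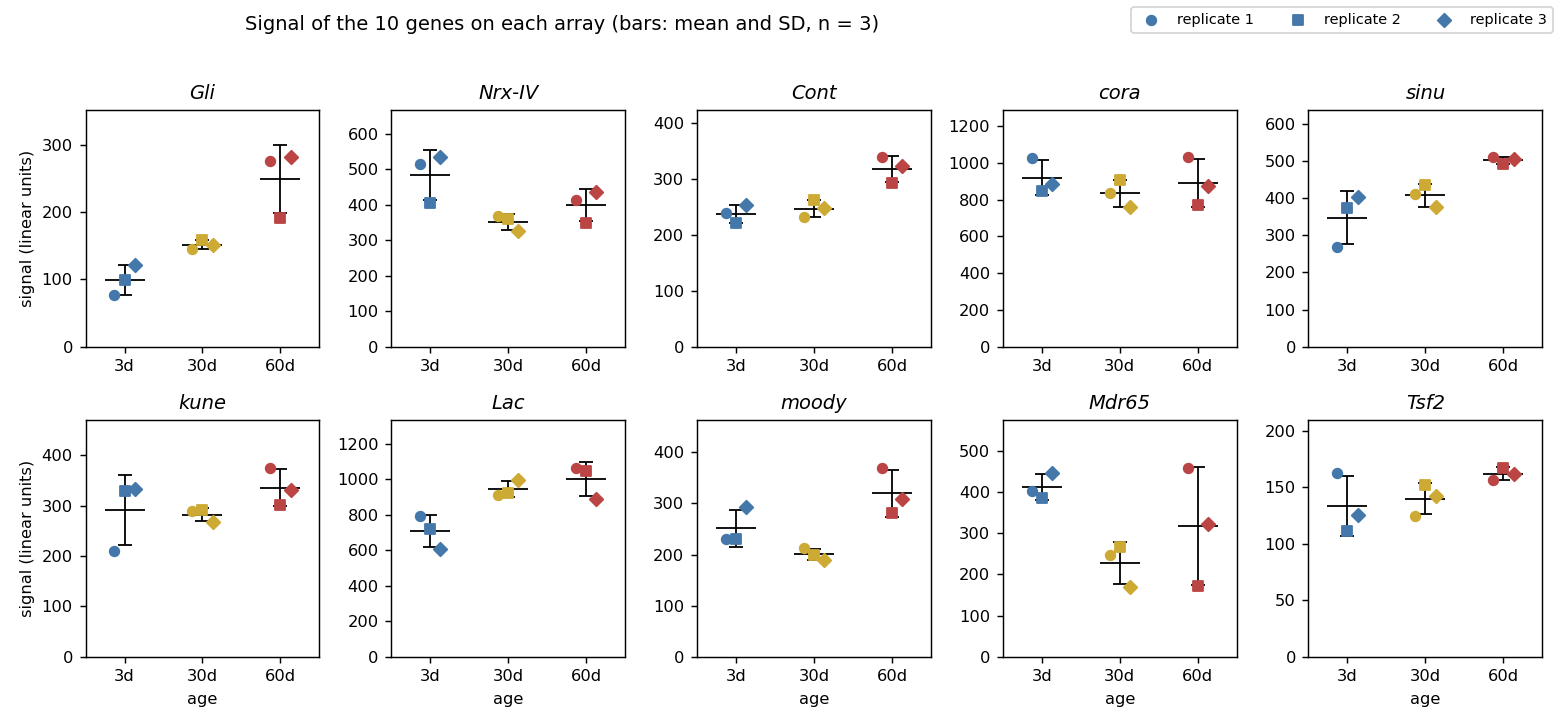
Deposited signal (linear units, y axis from 0) of the 10 genes on each array by age (x axis), with marker shape for the replicate and bars for mean and SD (n = 3). The 60d arrays of Gli, sinu, Cont and Lac lie above all of their 3d arrays, while Mdr65 spreads between 172 and 460 at 60d.

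Gli (probe set 1624203_s_at) encodes Gliotactin, a transmembrane protein of the tricellular junction, where the corners of 3 cells meet. Its signal was 76.8, 99.6 and 122 on 3d replicates 1, 2 and 3. On the 30d replicates it was 145, 159 and 151. On the 60d replicates it was 277, 191 and 281. No age overlapped another, and the lowest 60d array was replicate 2. The gene rose 2.50-fold in 60d brains, a log2 change of 1.32 ± 0.19 (95% interval 0.90 to 1.75, limma adjusted p = 0.00187, higher on 3 of 3 arrays). This call held in all 21 alternative settings, where the change ran from 1.07 to 1.51 and the adjusted p did not exceed 0.0127. The suffix of the probe set marks probes that may also match transcripts of other genes, which none of the settings addresses.

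The claudin-family proteins seal the space between cells, and sinu (1637014_at) and kune (1639520_at) are the members of that family in this list. On the 3d arrays sinu had signals of 267, 372 and 403. It had 411, 434 and 375 on the 30d arrays. It had 509, 492 and 504 on the 60d arrays, so that every 60d value exceeded every 3d and 30d value. sinu rose by 0.55 ± 0.16 in 60d against 3d brains (limma adjusted p = 0.0369). For kune the signals were 211, 329 and 333 at 3d, 289, 291 and 268 at 30d, and 376, 301 and 331 at 60d. 3d replicate 1 was the lowest array for both claudins, and the 3d arrays of kune overlapped those of both later ages. Its 60d against 3d difference of 0.23 ± 0.18 (95% interval -0.17 to 0.63) did not pass (limma adjusted p = 0.383), and it was 0.015 without 3d replicate 1.

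Nrx-IV, Cont and cora belong to the core adhesion complex of the junction. Nrx-IV (1639459_a_at) is a transmembrane neurexin-family protein, Cont (1637017_at) is its immunoglobulin-domain partner, and cora (1627454_a_at) is the band 4.1 scaffold that binds the Nrx-IV tail. Cont had signals of 239, 221 and 253 at 3d, 231, 262 and 247 at 30d, and 338, 292 and 323 at 60d. The 60d arrays stood above those of both earlier ages, which overlapped each other. Cont rose by 0.42 ± 0.13 in 60d against 3d brains (limma adjusted p = 0.0451).

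Its partner Nrx-IV had signals of 514, 404 and 533 at 3d, 369, 359 and 325 at 30d, and 414, 350 and 437 at 60d. All 3d arrays lay above all 30d arrays, whereas the 60d arrays overlapped both. The 60d against 3d difference was -0.27 ± 0.15 (95% interval -0.60 to 0.06, limma adjusted p = 0.228). For cora the signals were 1029, 845 and 886 at 3d, 836, 905 and 760 at 30d, and 1029, 769 and 873 at 60d. All ages overlapped for cora. Its 60d against 3d difference was -0.05 ± 0.15 (95% interval -0.38 to 0.28, limma adjusted p = 0.831), and it was 0.07 with quantile normalization and 0.04 with cyclic loess.

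Lac (1628336_a_at) encodes Lachesin, an immunoglobulin-family membrane protein of the junction, and Tsf2 (1628943_at) encodes melanotransferrin, an iron-binding protein needed for junction assembly. Lac had signals of 791, 722 and 610 at 3d, 914, 924 and 998 at 30d, and 1066, 1049 and 890 at 60d. The 3d arrays lay below the arrays of both later ages. Lac rose by 0.50 ± 0.14 in 60d against 3d brains (limma adjusted p = 0.0323) and by 0.42 ± 0.14 in 30d against 3d brains (limma adjusted p = 0.0344). Tsf2 had signals of 162, 111 and 126 at 3d, 125, 152 and 142 at 30d, and 156, 167 and 162 at 60d. A single high 3d array, replicate 1, overlapped the 60d arrays. The 60d against 3d difference of Tsf2 was 0.30 ± 0.16 (limma adjusted p = 0.200), and it was 0.45 (adjusted p = 0.0327) without 3d replicate 1, the array with the high GAPDH ratio. Over all fits with a single array left out, the difference ran from 0.18 to 0.45, with a limma adjusted p of up to 0.457.

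moody and Mdr65 mark the barrier glia rather than the junction strand. moody (1633112_at) encodes a G protein-coupled receptor of the subperineurial glia that governs the sealing of the barrier. It had signals of 230, 231 and 293 at 3d, 212, 198 and 190 at 30d, and 370, 281 and 309 at 60d. The 30d arrays were the lowest and the 60d arrays lay above them, with an overlap of 60d replicate 2 and 3d replicate 3. The F-test over the ages passed for moody (limma adjusted p = 0.0210) and also for Gli, Lac and Cont, so that 4 of the 10 genes passed it, against 34% of all genes tested. For moody the 60d against 3d difference of 0.35 ± 0.15 did not pass (limma adjusted p = 0.130).

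Mdr65 (1631925_at) encodes an ABC efflux transporter of the P-glycoprotein family that keeps drugs and toxins out of the brain. Its signals were 402, 385 and 446 at 3d, 246, 267 and 171 at 30d, and 460, 172 and 322 at 60d. The 30d arrays all lay below the 3d arrays, and the 60d arrays overlapped both. Between replicates its log2 SD was 0.11 in 3d brains, 0.34 in 30d brains and 0.71 in 60d brains, while the median SD over the 10 genes was 0.21 in 3d, 0.09 in 30d and 0.16 in 60d brains. The 60d against 3d difference was -0.48 ± 0.30 (95% interval -1.13 to 0.17, limma adjusted p = 0.268). It was -0.80 (adjusted p = 0.0421) without 60d replicate 1 and -0.09 (adjusted p = 0.816) without 60d replicate 2.

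The calls for sinu, Lac and Cont at 60d, unlike that for Gli, were lost under some settings. In a fit of the 6 arrays of 60d and 3d alone the adjusted p was 0.110 for sinu, 0.113 for Lac and 0.147 for Cont, and Gli alone of the 10 passed. With single arrays left out, the call of sinu was lost without any 30d replicate and without 60d replicates 2 or 3 (adjusted p from 0.0589 to 0.112). That of Lac was lost without any 30d replicate, 3d replicates 2 or 3, or 60d replicates 2 or 3 (adjusted p from 0.0505 to 0.126). That of Cont was lost without any array except 3d replicate 1 (adjusted p from 0.0505 to 0.140). With each array centred on its median, which put the median change of all genes at -0.13 instead of 0.04, only Gli passed among the 10, and 293 genes rose and 1268 fell in all, against 656 and 855.

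**Figure D2:**
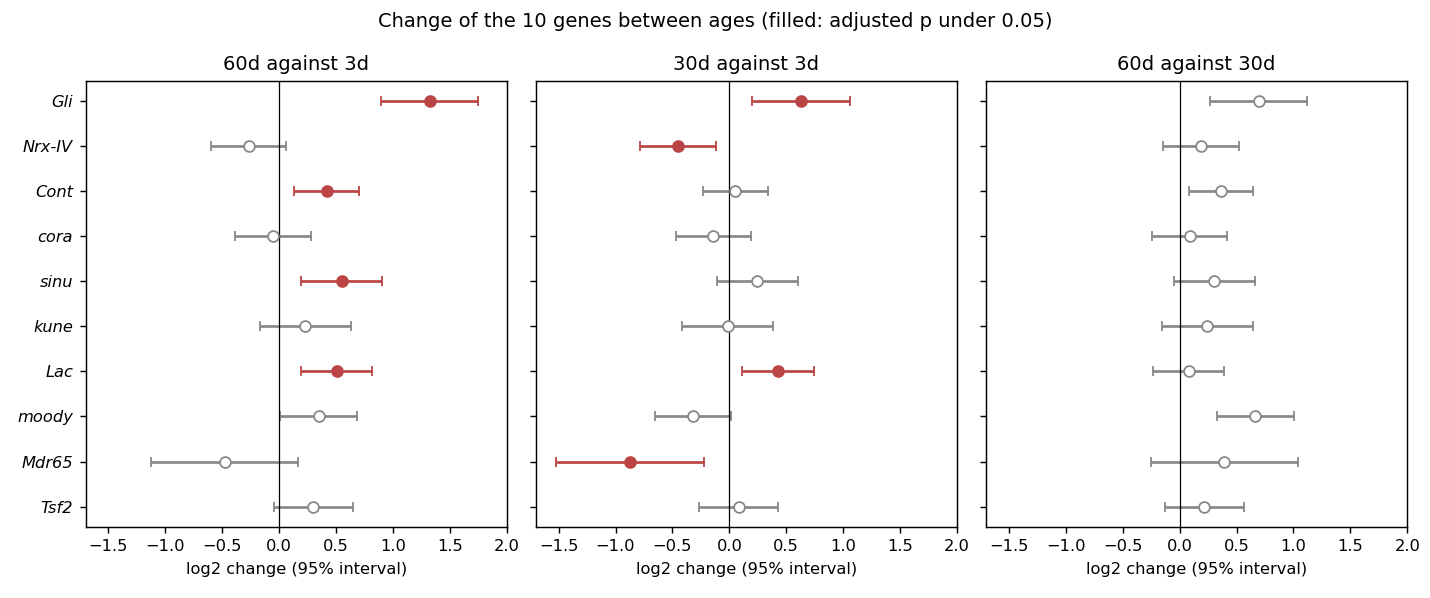
Change in log2(signal + 1) of the 10 genes (x axis, points) with 95% intervals from limma, for 60d against 3d, 30d against 3d and 60d against 30d, filled where the adjusted p was under 0.05. Gli stands at 1.32 for 60d against 3d, Mdr65 has the widest interval in each comparison, and no gene is filled for 60d against 30d.

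By middle age the members had moved in both directions. In 30d against 3d brains 2 of the 10 genes rose (Gli and Lac), 2 fell (Nrx-IV and Mdr65) and 6 did not pass. That share of 40% stood beside 42.3% of all genes tested (21% higher and 21.3% lower), which is close to the background. Mdr65 fell by 0.87 ± 0.30 (limma adjusted p = 0.0348) and Nrx-IV fell by 0.45 ± 0.15 (limma adjusted p = 0.0337), while Gli rose by 0.63 ± 0.19 (limma adjusted p = 0.0250). The median change of the 10 genes was 0.02, and that of all genes was -0.01. The arrays were apart for 5 genes, against 57.9% of all genes, of which 2 were all higher (28.3% of all genes) and 3 all lower (29.6% of all genes), the third being moody at -0.32 ± 0.15 (limma adjusted p = 0.110).

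Each of these 4 calls at 30d was lost without any 1 of the 30d replicates. It was lost for Gli also without 3d replicate 1 (adjusted p from 0.0514 to 0.0808 over these), for Nrx-IV without 3d replicate 3 (0.0693 to 0.126), and for Lac (0.0571 to 0.143) and Mdr65 (0.0550 to 0.135) without 3d replicates 2 or 3. Scaling changed the split: with quantile normalization 1 of the 10 rose and 0 fell, with cyclic loess 1 rose and 1 fell, and with median centring 0 rose and 3 fell. Over all genes the corresponding numbers were 1205 up and 2072 down, 1085 and 2038, and 689 and 2893, against 1714 and 1741 without further scaling.

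Between 30d and 60d, limma called none of the 10 genes, although all 10 differences were positive. That of cora was -0.02 without 60d replicate 1. That of Lac was -0.08 with array weights, where 60d replicate 3 had a weight of 43.8 against 0.21 and 0.26 for 60d replicates 1 and 2. This 0% stood beside 0.538% of all genes (0.526% higher and 0.0122% lower), and 3 members had an unadjusted p under 0.05. These were moody at 0.67 ± 0.15 (adjusted p = 0.0895), Gli at 0.69 ± 0.19 (adjusted p = 0.155) and Cont at 0.36 ± 0.13 (adjusted p = 0.240). The arrays of 60d lay wholly above those of 30d for 6 genes (moody, Gli, Cont, sinu, kune and Tsf2) and wholly below for 0, against 17.2% and 10.1% of all genes (27.3% in either direction). The median difference was 0.27 for the 10 genes and 0.02 for all genes. Without 60d replicate 2, Gli at 0.88 and moody at 0.76 passed (adjusted p = 0.0278 and 0.0288). In that setting 502 of the 8171 genes passed (356 up and 146 down), against 44 with all arrays. The 3 comparisons share arrays, so they are not independent of each other.

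Of the 10 genes only moody (10%) passed the test for a different course in the 2 intervals. Its change from 30d to 60d minus its change from 3d to 30d was 0.99 ± 0.27 (95% interval 0.40 to 1.57, limma adjusted p = 0.0379), against 18.4% of all genes that passed this test (10.1% higher and 8.3% lower). Mdr65 and Nrx-IV had differences of 1.27 ± 0.51 and 0.64 ± 0.26 that did not pass (limma adjusted p = 0.0878 and 0.0925), and that of Gli was 0.07 ± 0.34. The moody call was lost without any 30d replicate, without 3d replicate 3 and without 60d replicates 1 or 3, where the adjusted p ran from 0.0514 to 0.151 and the difference from 0.87 to 1.07.

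**Figure D3:**
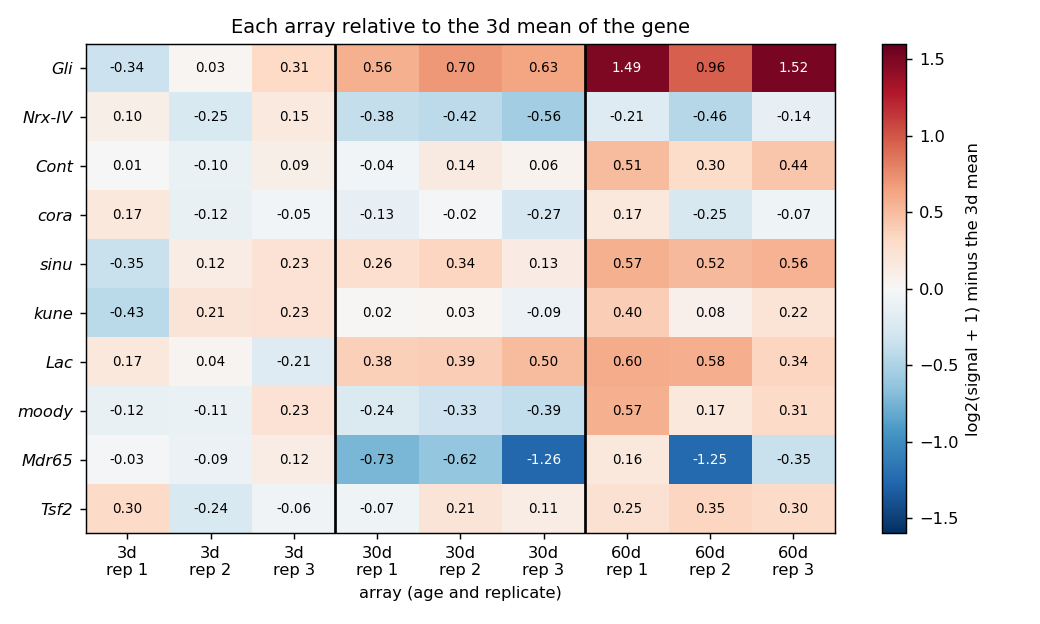
Each array (columns, ordered by age and replicate) relative to the 3d mean of the gene (rows), as a difference in log2(signal + 1), red for higher and blue for lower. Gli is at 1.49, 0.96 and 1.52 on the 60d arrays, and Mdr65 is at -1.25 on 60d replicate 2 against 0.16 on 60d replicate 1.

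The 60d arrays differed in the members' levels. Of the 10 genes 8 had their lowest 60d value on replicate 2, against 45.3% of all genes, and 7 had their highest on replicate 1, against 44.7%. The exceptions on replicate 2 were Lac, lowest on replicate 3, and Tsf2, lowest on replicate 1 and highest on replicate 2, while Gli and Nrx-IV were highest on replicate 3. Of the 10 marker sums of other cells 4 were likewise highest on 60d replicate 1 and lowest on replicate 2: head fat body, perineurial glia, cortex and ensheathing glia, and haemocytes. These sums are not all separate, since the perineurial and haemocyte lists share vkg. The head fat body sum, over 9 of 10 listed markers that matched, was 5893 to 7197 on 3d arrays, 4961 to 6350 on 30d arrays, and 12253, 4959 and 8965 on 60d replicates 1, 2 and 3. The perineurial glia sum, over 4 of 5 listed markers, was 1083 to 1331 on 3d arrays, 666 to 865 on 30d arrays, and 1571, 967 and 1149 on the same 60d arrays. Tret1-1 alone made up 956, 651 and 735 of the perineurial sums on 60d replicates 1, 2 and 3. The pan-glial, astrocyte-like and neuronal sums were lowest on replicate 3, the photoreceptor and tracheal sums were highest there, and the muscle sum was highest on replicate 2 (2222, 2459 and 2162 on 60d replicates 1, 2 and 3). The part of these differences in the members' values was not tested.

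Across all 9 arrays, which the genes share, the highest correlations within the list were between Gli and sinu (Pearson r = 0.91), Gli and Cont (0.88), Nrx-IV and Mdr65 (0.83), the claudins sinu and kune (0.81) and cora and Mdr65 (0.81). The lowest was between Nrx-IV and Lac (-0.73). They are given as descriptions, since the age groups themselves differ. Gli, moody and Lac had the smallest F-test p over the ages, and for each the 4 most similar of the other 8161 genes were sought by Pearson r over the 9 arrays. For Gli these were CG9689, CG33307, CG6701 and CG34232 (r from 0.97 to 0.98). For moody they were CG31673, the BMP-family ligand gbb, the Mediator subunit MED10 and CG6357 (r from 0.95 to 0.99). For Lac they were the DNA repair gene Irbp, CG4757, the stress-response gene Gadd45 and lncRNA:CR42646 (r from 0.95 to 0.98).

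The other genes of the junction and the barrier included more falls than rises among those that passed, a split that single arrays changed. Of 53 listed genes 41 matched the annotation and 35 passed the filter on low signal. In 60d against 3d brains 2 rose, 8 fell and 25 did not pass, so that 28.6% were called, against 18.5% of all genes tested. Falls also outnumbered rises over all genes, of which 855 fell (10.5%) and 656 rose (8.03%). Among the 35 the split was 3 up and 2 down without 60d replicate 2, and 2 and 2 without 3d replicate 3. It was 0 and 2 without 60d replicate 3, and also with the 6 arrays of 60d and 3d alone. It was 12 and 13 with array weights, which gave 60d replicate 3 a weight of 43.8. The median change of the 35 was -0.01, against 0.32 for the 10 members and 0.04 for all genes. In 30d against 3d brains 2 rose and 8 fell, again 28.6%, against 42.3% of all genes (21% higher and 21.3% lower). With median centring 0 of the 35 rose and 15 fell, while 689 of all genes rose and 2893 fell. For 60d against 30d limma called 0 of 35 (0.538% of all genes), with 4 at an unadjusted p under 0.05.

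In the list of junction membrane proteins 3 of 5 tested genes fell at 60d and 2 did not pass, against 10.5% of all genes that fell. The 3 were wun2, wun and nrv2. wun2, a lipid phosphate phosphatase whose family is required for barrier function of septate junctions in the trachea, had signals of 70.8, 51.8 and 52.0 at 60d, against 269, 198 and 234 at 3d. The arrays were far apart, and wun2 fell by 1.99 ± 0.16 (limma adjusted p = 0.000108). It is also listed as a marker of astrocyte-like glia, of whose 7 tested markers 4 fell and 3 did not pass, with a marker sum of 4653 to 5471 at 60d against 7216 to 8130 at 3d. wun, of the same phosphatase family and named after its values were seen, fell by 0.62 (limma adjusted p = 0.0419). Its call was lost without any array except 3d replicate 1 (adjusted p from 0.0642 to 0.146). nrv2, the beta subunit of the sodium pump that junction assembly needs, was also chosen here after its values were seen. It had signals of 1540, 1305 and 1337 at 60d, against 2160, 1828 and 1972 at 3d, and fell by 0.51 ± 0.14 (limma adjusted p = 0.0253). Its call was lost without 3d replicate 3, 30d replicate 2 or 60d replicates 2 or 3 (adjusted p from 0.0516 to 0.100). pck, a further claudin-family gene, had a difference of 0.54 ± 0.19 for 60d against 3d that did not pass (limma adjusted p = 0.0651).

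In the same tricellular junction as Gli, bark, a large transmembrane protein also called anakonda, was at 0.41 ± 0.17 for 60d against 3d and did not pass (limma adjusted p = 0.104). The Ly6-family proteins, small membrane-anchored factors of junction assembly, had 1 rise among 4 tested genes. Over all genes 8.03% rose and 18.5% passed. crim had signals of 341, 327 and 346 at 60d, against 190, 226 and 259 at 3d, and rose by 0.60 ± 0.14 (limma adjusted p = 0.0146), a call lost without 60d replicate 3 (adjusted p = 0.0645). Of the 5 scaffold and polarity genes limma passed 0, with adjusted p from 0.135 for l(2)gl, a tumour suppressor at 0.44 ± 0.20, to 0.988, and 1 of them had an unadjusted p under 0.05.

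The smooth septate junction, a variant found in the gut and renal tubules, had 2 genes tested, and they moved in opposite directions. Over all genes 8.03% rose and 10.5% fell at 60d. hoka had signals of 160, 199 and 190 at 60d, against 133, 117 and 107 at 3d. It rose by 0.61 ± 0.14 (limma adjusted p = 0.0146), a call lost without 3d replicate 3 or 60d replicate 3 (adjusted p = 0.0612 and 0.0672). Ssk had signals of 170, 152 and 146 at 60d, against 181, 316 and 277 at 3d. It fell by 0.69 ± 0.19 (limma adjusted p = 0.0286), a call lost without 3d replicates 2 or 3 or 60d replicates 2 or 3 (adjusted p from 0.0733 to 0.107).

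In the list of moody signalling genes 1 of 4 tested genes fell at 60d, against 10.5% of all genes. Galphas, the stimulatory G protein alpha subunit, had signals of 807, 479 and 662 at 60d, against 1031, 964 and 1072 at 3d. It fell by 0.69 ± 0.18 (limma adjusted p = 0.0231), a call lost without 3d replicate 3 or 60d replicates 2 or 3 (adjusted p from 0.0612 to 0.0769). Of the 14 barrier transporters and receptors tested 3 fell (21.4%) and 11 did not pass. Over all genes 18.5% passed and 10.5% fell. kcc, a potassium-chloride cotransporter, had signals of 1286, 1169 and 1167 at 60d, against 3270, 2107 and 2117 at 3d, and fell by 1.02 ± 0.17 (limma adjusted p = 0.00348). Tret1-1, the trehalose transporter of the perineurial glia and one of their listed markers, was at 0.54 ± 0.18 for 60d against 3d and at 0.77 ± 0.18 for 60d against 30d (limma adjusted p = 0.0616 and 0.0991). Of the 3 perineurial markers tested 1 fell for 60d against 3d (limma adjusted p = 0.00967) and 2, Tret1-1 among them, did not pass. The split was the same for 30d against 3d, where the fall had a limma adjusted p of 0.00228. At 30d wun2 fell by 1.91 ± 0.16, kcc fell by 1.10 ± 0.17 and Ssk fell by 1.04 ± 0.19 against 3d (limma adjusted p = 0.000428, 0.00256 and 0.00358). The gene hoka rose by 0.64 ± 0.14 (limma adjusted p = 0.00744). The efflux transporter relatives of Mdr65 differed there, as Mdr50 rose by 0.65 ± 0.24 (adjusted p = 0.0463) and Mdr49, also named after its values were seen, fell by 0.81 ± 0.30 (adjusted p = 0.0462). Each of these calls was lost without any of 6 of the 9 arrays, among them every 30d replicate (adjusted p from 0.0606 to 0.167 for Mdr50 and from 0.0601 to 0.166 for Mdr49).

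**Figure D4:**
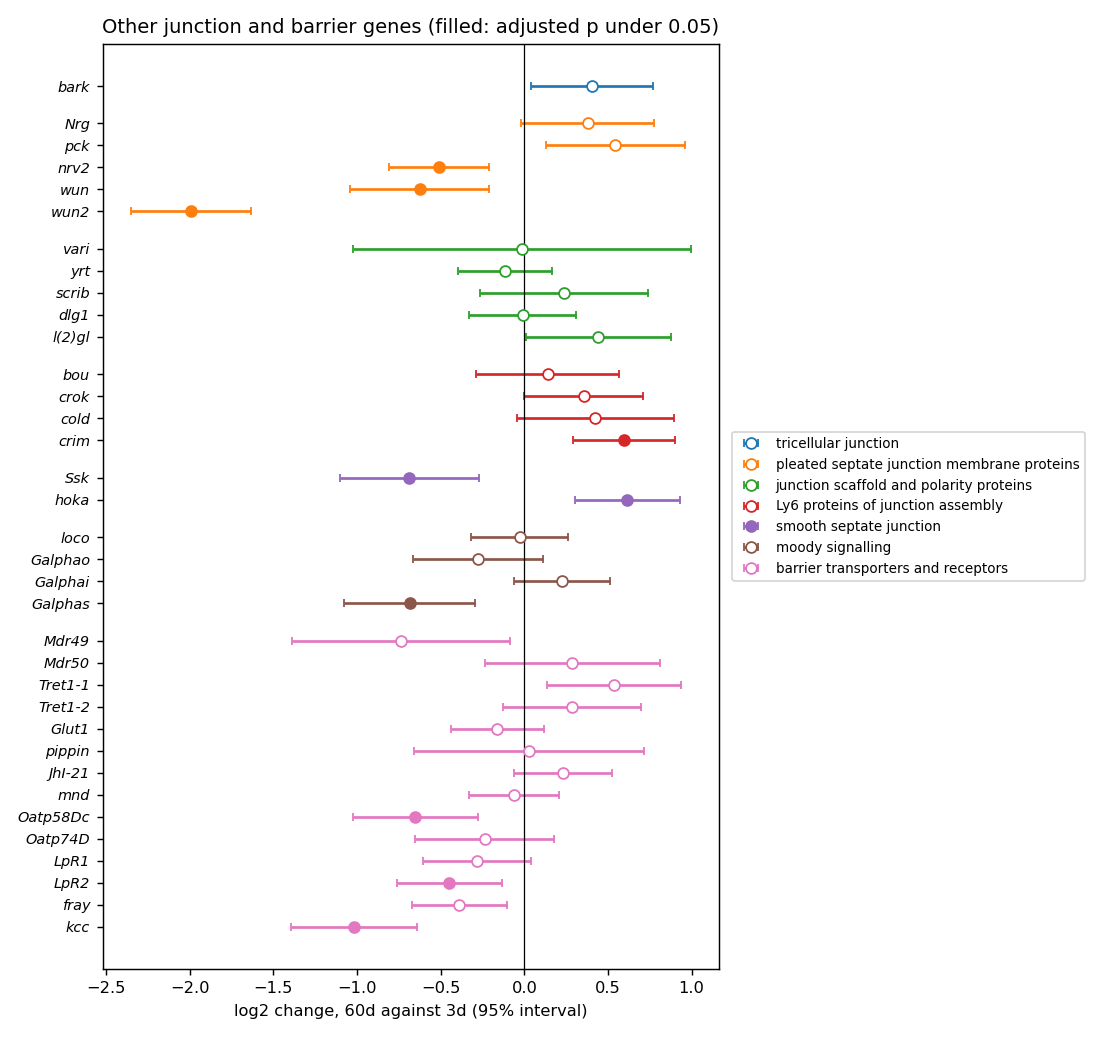
Change in log2(signal + 1), 60d against 3d (x axis), of the 35 other junction and barrier genes with 95% intervals from limma, coloured by class and filled where the adjusted p was under 0.05. wun2 at -1.99 and kcc at -1.02 lie farthest to the left, and crim and hoka, at 0.60 and 0.61, are the filled genes on the right.

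Markers of other cells also differed between 60d and 3d brains, and their sums stand beside the members' values. The counts of markers that follow stand beside 8.03% of all genes higher and 10.5% lower. The muscle sum was 2162 to 2459 at 60d and 1470 to 1969 at 3d, with 3 of 8 tested markers higher. The photoreceptor sum was 8421 to 9295 at 60d and 12451 to 13600 at 3d, with 6 of 8 tested markers lower. The neuronal sum was 5434 to 6201 at 60d and 7164 to 7401 at 3d, with 2 of 7 tested markers lower. The arrays of the ages did not overlap in these 3 sums, nor in the pan-glial and astrocyte-like sums, which were both lower at 60d and share the marker Gs2. The sum of the 10 members was 4063 to 4995 at 60d and 3720 to 4004 at 3d, also without overlap. The haemocyte sum was 1791 to 2311 at 60d and 2119 to 2675 at 3d, with 2 of 9 tested markers higher and 3 lower. The tracheal and epidermal sum, from cells that also build septate junctions, was 1621 to 1875 at 60d and 1422 to 1666 at 3d, and of its 5 tested markers limma passed 0. The pan-glial sum was 4507 to 5306 at 60d and 5646 to 7195 at 3d, with 1 of 4 tested markers lower, which was nrv2 itself. The cortex and ensheathing glia sum was 2543 to 3418 at 60d and 2993 to 3657 at 3d, and limma passed 0 of 6. No matched marker was at 0 on any array. Their part in the members' changes was not tested.

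**Figure D5:**
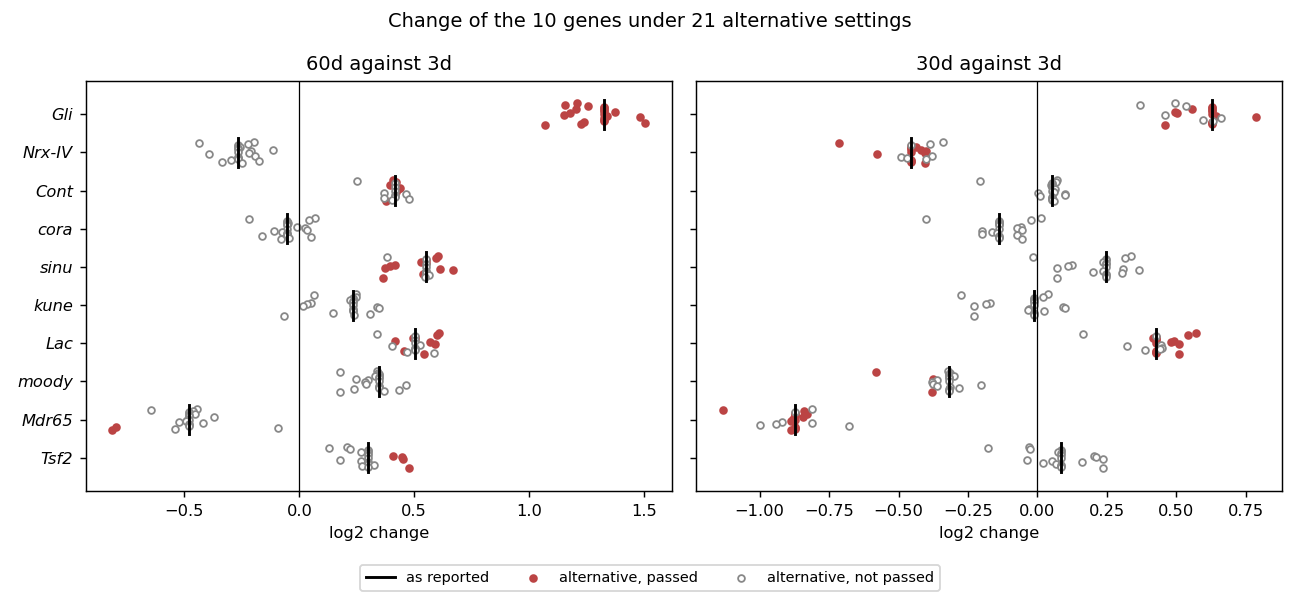
Change in log2(signal + 1) of the 10 genes (x axis) as reported (black line) and under 21 alternative settings (points, filled where the adjusted p was under 0.05), for 60d against 3d and 30d against 3d. Gli keeps filled points in every setting for 60d against 3d, between 1.07 and 1.51.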

How the data were processed

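The deposited table holds a linear signal intensity per probe set and array, which the authors made from Affymetrix Drosophila 2.0 arrays. GCRMA and MAS5 are both listed in the submitters' processing notes, with no version or role. The trimmed mean was 150.002 on every array, as scaled MAS5 signals would have. Values were analysed as log2(signal + 1) with no further scaling. The 183 control probe sets were not tested, and a gene with several probe sets was represented by that with the highest mean. The filter on low signal kept genes above the 40th percentile (5.71) on 3 or more arrays. limma 3.58.1 in R 4.3.3 fitted a mean per age to all 9 arrays, with two-sided tests and Benjamini-Hochberg adjustment over 8171 genes. Names came from the platform annotation and a RefSeq gene table. The suffix of the Gli probe set (_s_at) marks probes that can match several transcripts, which may belong to more than 1 gene. The annotation names only Gli for it. The probe sets of nrv2, pck, Galphas, Ssk and l(2)gl have the same suffix. The procedure was tested on simulated data with independent noise and the same spread at every age. The spreads of the real arrays differed between ages, so the simulation cannot show how that affects the calls.

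The members, lists and alternatives were chosen with earlier results of these data known. The rule for names took every member and, from the wider list, the called genes with the largest changes in each direction (4 for 60d against 3d, 3 in the other comparisons) and the gene with the smallest p of a class with none called. The number of arrays limits the precision. No pair of arrays held identical values.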

Additional observations from a re-analysis of the deposited data

Results flagged for a closer look

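The change of moody from 30d to 60d exceeded its change from 3d to 30d by 0.99 on the log2 scale (limma adjusted p = 0.0379). This call was lost in 8 of 20 alternative settings, with an adjusted p of up to 0.151. Neither interval passed alone (limma adjusted p = 0.110 for 3d to 30d and 0.0895 for 30d to 60d). The 3d to 30d change was -0.32 ± 0.15 and the 30d to 60d change 0.67 ± 0.15, and the 30d arrays enter both.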

How the results depend on the processing

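For the members and the named genes, no call turned its direction in the alternatives run for it, which were 21, or 20 for the difference between intervals and for Mdr50. The members called were 4 for 60d against 3d, 4 for 30d against 3d, 0 for 60d against 30d, 1 for the difference between intervals and 4 by the F-test. For 60d against 3d that count was 1 with median centring, with no filter, with the 6 arrays alone and with the replicate block. For 30d against 3d it was 1 with quantile normalization or no filter and 2 with cyclic loess. For the intervals it was 3 with median centring and 0 with no filter or the replicate block, and by the F-test it was 2 with no filter or the replicate block. With single arrays left out, the counts ran from 1 to 5 for 60d against 3d, 0 to 4 for 30d against 3d, 0 to 2 for 60d against 30d, 0 to 3 for the intervals and 1 to 6 by the F-test.

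The other junction and barrier genes called were 10, 10 and 0 in the 3 comparisons of ages, and ran from 2 to 13, 7 to 17 and 0 to 3 with single arrays left out. The 2 up and 8 down for 60d against 3d were 3 and 2 without 60d replicate 2. They were 2 in all for 60d against 3d with the 6 arrays alone, and 16 for 30d against 3d with the GAPDH ratio as a covariate. Over all genes 1511, 3455 and 44 were called, and 606 to 2492, 1555 to 4559 and 9 to 502 with single arrays left out. For 60d against 3d the 6 arrays alone gave 540. For 60d against 30d there were 82 with quantile normalization, 73 with median centring, 22 with cyclic loess, 22 with no filter and 20 with the replicate block. For 60d against 3d the split over all genes was 456 up and 960 down with quantile normalization and 472 and 933 with cyclic loess.

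Leaving out 3d replicate 1 and 60d replicate 1 together gave 7 members by the F-test, 19 other junction genes for 60d against 3d and 19 for 30d against 3d, and 4177, 5389 and 74 of all genes. Array weights gave 8 members for 60d against 30d, 5 for the intervals and 9 by the F-test, 25, 19 and 17 other junction genes, and 4664, 5534 and 4677 of all genes. Their estimation stopped before convergence, with a weight of 43.8 for 60d replicate 3 and 0.132 to 2.21 for the other arrays. Same-numbered replicates had correlations of their deviations from -0.33 to 0.14, so the numbers were not taken to pair the arrays. The cause of these shifts was not tested.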
